A study of Mus musculus with 6 samples.

Results

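The genes described here encode the beta subunits of the sodium pump and the main ion channels of the sarcolemma, the surface membrane of the muscle fiber. They are Atp1b1, Atp1b2, Clcn1, Scn4a, Kcnj2, Kcnj11 and Kcna7, chosen by symbol, and all 7 were found by their Entrez gene IDs among the 13363 genes of the expression table, which lists genes above 0 in all 6 samples. Such a listed gene is called measured here. Expression was measured by RNA sequencing in the gastrocnemius muscle of 3 C26 mice and 3 control mice. All were male Balb/c mice, purchased at 6 weeks of age and acclimated for 1 week. The C26 mice had received 500000 C26 cells under the skin, which come from a murine colon adenocarcinoma and lead to cachexia, and were weighed over 15 days. The control mice carried no tumor. Whether a library held the muscle of 1 animal or of several is not given in the sources used here. A value is an average over fibers, fat, vessels, nerve and blood, and fewer cells of a type and less RNA per cell cannot be told apart. Skeletal muscle genes were abundant in every sample, with Acta1 (skeletal actin) at 10781 to 27269 FPKM and Ckm (muscle creatine kinase) at 14314 to 26160 FPKM. FPKM divides the fragments of a gene by its transcript length and by the size of the library, so genes can be compared per length. The table gives FPKM without read counts, which leaves the depth unknown and makes the spread between 3 muscles the measure of precision.

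A muscle fiber fires action potentials along its sarcolemma, carried by ion gradients. The pump restores these gradients, and the channels let ions pass along them. The sodium pump moves sodium out and potassium in. Its alpha subunit carries the catalytic sites, and its beta subunit is a glycoprotein that brings alpha to the membrane and tunes its affinity for ions. Atp1b1 is the beta isoform typical of oxidative muscle and Atp1b2 that of fast glycolytic muscle. Scn4a encodes Nav1.4, the sodium channel that opens the action potential, and Clcn1 encodes ClC-1, the chloride channel that holds the resting potential and damps repetitive firing. Kcnj2 encodes Kir2.1, an inward rectifier potassium channel that sets the resting potential, and Kcna7 encodes Kv1.7, a voltage-gated potassium channel. Kcnj11 encodes Kir6.2, the pore of the KATP channel, which opens when the ATP level of the cell falls.

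Annotation of the GRCm38 genome (GENCODE M21) places Atp1b1 on the minus strand of chromosome 1 at chr1:164437109-164458355 and Clcn1 on the plus strand at chr6:42286685-42315756. Atp1b2 (chr11:69599736-69605942, minus strand), Scn4a (chr11:106318592-106353288, minus strand) and Kcnj2 (chr11:111066164-111076821, plus strand) share chromosome 11. Kcnj11 (chr7:46093953-46100764, minus strand) and Kcna7 (chr7:45405653-45409763, plus strand) share chromosome 7. Their longest coding transcripts run from 2182 bases for Kcna7 to 6598 for Scn4a. Kcnj11 has 1 exon, Kcnj2 and Kcna7 have 2 each, and Scn4a and Clcn1 have 24 and 23. The last 617 bases of Atp1b1 overlap Nme7 and the last 445 of Clcn1 overlap Fam131b, both on the other strand. Strand use in the counting is not given in the sources used here, but both neighbors were at or below 1.58 FPKM in every muscle.

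Promoter sequence from RefSeq (GRCm38.p6) was available for 5 of the 7 genes, and in Scn4a and Kcna7 the window overlaps an annotated exon. The 250 bases before the start are shown for the others, to set Clcn1, which fell most in C26 muscle, beside Kcnj2 and Atp1b1, which did not pass the test. Capitals mark matches on either strand to the E-box CANNTG, bound by myogenic factors, the core of the MEF2 site, the TATA box TATAAA, the FoxO core GTAAACA and the hexamer AGAACA of the glucocorticoid receptor. The windows are chr6:42286435-42286684 for Clcn1, chr11:111065914-111066163 for Kcnj2 and, on the minus strand, chr1:164458356-164458605 for Atp1b1.
Clcn1: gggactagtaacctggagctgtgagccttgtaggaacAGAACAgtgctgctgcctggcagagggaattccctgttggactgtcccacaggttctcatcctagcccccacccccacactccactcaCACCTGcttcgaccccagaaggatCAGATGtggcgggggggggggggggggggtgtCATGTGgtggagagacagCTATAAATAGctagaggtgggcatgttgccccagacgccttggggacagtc
Kcnj2: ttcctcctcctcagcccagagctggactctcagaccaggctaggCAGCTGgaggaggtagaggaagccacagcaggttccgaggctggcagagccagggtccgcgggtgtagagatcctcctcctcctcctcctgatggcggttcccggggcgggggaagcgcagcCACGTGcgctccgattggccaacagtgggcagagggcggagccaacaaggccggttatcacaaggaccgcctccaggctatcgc
Atp1b1: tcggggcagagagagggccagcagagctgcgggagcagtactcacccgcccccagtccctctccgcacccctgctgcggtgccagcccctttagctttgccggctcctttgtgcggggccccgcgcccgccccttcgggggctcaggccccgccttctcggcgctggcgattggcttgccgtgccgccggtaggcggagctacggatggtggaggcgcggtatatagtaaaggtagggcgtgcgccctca

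The Clcn1 window holds CTATAAATAG at 51 to 42 bases before the start, a match to the MEF2 core that contains the TATA box match. The MEF2 core is found in 3.22% of 32526 promoter windows of this length and the TATA box in 12.3%. Clcn1 also has 3 E-box matches, at 125, 101 and 69 bases before the start, and 1 match to the glucocorticoid receptor hexamer. Kcnj2 has 2 E-box matches and Atp1b1 has none of the 5 motifs. E-boxes are in 66.2% of all windows, the glucocorticoid receptor hexamer in 16.0% and the FoxO core in 3.17%. These are matches of letters, and binding was not measured.

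In C26 muscle, Atp1b2 and Clcn1 fell by log2 fold changes of -2.22 and -2.37, and Kcnj11 rose by 1.22, while Atp1b1, Scn4a, Kcnj2 and Kcna7 did not pass the test. The log2 fold changes are on values rescaled to TPM, transcript abundances with the same sum in every muscle, divided by TMM factors and taken to log2 with 1 added, and a gene is called at an adjusted p under 0.05. Of the 7 genes, 3 were called, against 33.8% of all 13363 genes. For the 2 lower genes the background was 14.5% and for the 1 higher gene it was 19.4%, and the 3 make up 42.9% of 7. These shares stand for 1931 lower and 2590 higher genes, and on FPKM as deposited the balance turned to 2504 lower and 1678 higher. Both lower genes were also more than 4-fold lower, which together with the call held for 1.73% of all genes. For these 3 genes every scaled C26 value lay outside the control range on 1 side, as it did for 53.5% of all genes (27% with C26 higher and 26.5% with C26 lower). The median log2 fold change was -0.10 over the 7 genes and -0.05 over all genes.

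**Figure D1:**
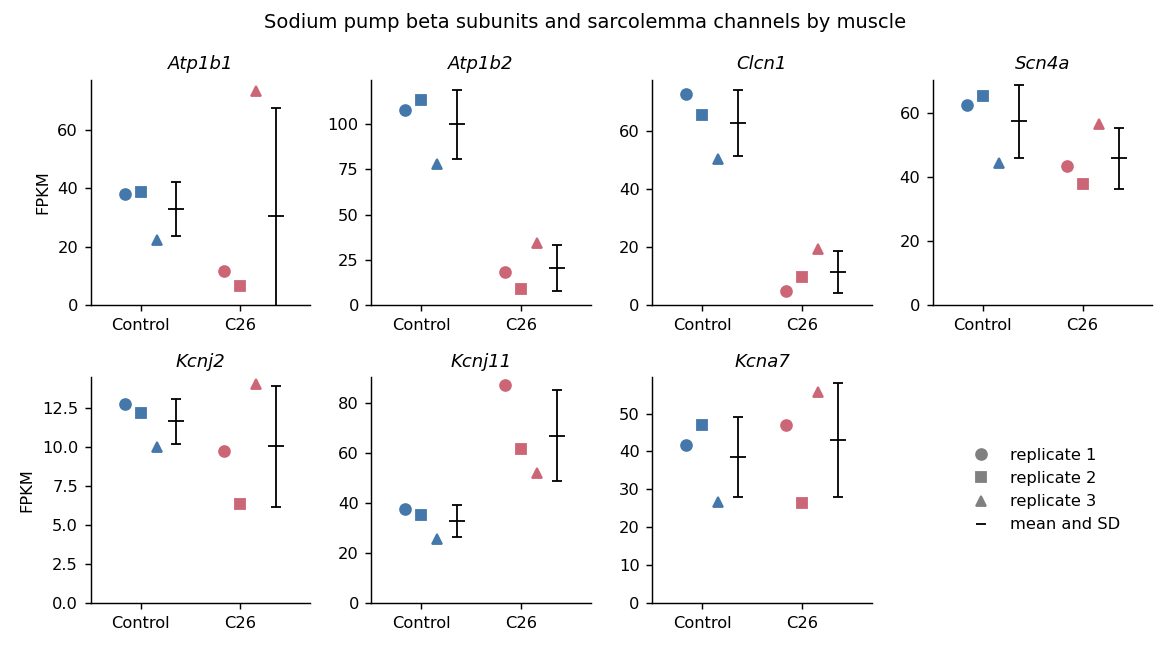
FPKM of the 7 genes in each muscle, with control muscles in blue and C26 muscles in red, symbols for replicates 1 to 3, and the mean with its SD in black beside them (n = 3 per group; the lower SD bar of Atp1b1 in C26 muscle is cut at 0). Atp1b2 and Clcn1 lie lower and Kcnj11 higher in every C26 muscle than in every control muscle, and the other 4 genes overlap.

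Atp1b2 had 18.1, 8.95 and 34.2 FPKM in the C26 muscles and 108, 113 and 78.1 FPKM in the control muscles. Every C26 muscle was below every control muscle, and C26 replicate 3 was the nearest to the controls. The means were 20.4 ± 12.8 FPKM in C26 and 99.8 ± 19.0 FPKM in control muscles (SD, n = 3 each). The scaled level was 4.65-fold lower in C26 muscle, a log2 fold change of -2.22 (SE 0.50, limma, Benjamini-Hochberg adjusted p = 0.0184). Among the 6 fits that omitted a muscle, the call was lost without C26 replicate 1, control replicate 1 or control replicate 2, with adjusted p (limma, Benjamini-Hochberg) of 0.0657, 0.0671 and 0.0567.

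Atp1b1 had 11.7, 6.54 and 73.1 FPKM in the C26 muscles and 38.0, 38.7 and 22.3 FPKM in the control muscles. The C26 muscles lay on both sides of the controls: replicates 1 and 2 were below all of them and replicate 3 above all of them. The highest C26 value was 11.2 times the lowest, against 1.73 times among the controls, the widest spread of the 7 genes. The log2 fold change was -0.60 (SE 0.87, limma, Benjamini-Hochberg adjusted p = 0.612). Without C26 replicate 2 it was 0.12, and without C26 replicate 3 it was -1.55 and passed the test (limma, Benjamini-Hochberg adjusted p = 0.0271). C26 replicate 3 was also above both other C26 muscles in some fiber type genes and not in others. Mb, the myoglobin gene of oxidative fibers, was at 4906 FPKM there and at 275 and 74.0 FPKM in the other C26 muscles. The fast myosin gene Myh1 was at 2555 FPKM there and at 299 and 254 FPKM in the others. The myosin gene Myh2 was at 379 FPKM there and at 84.5 and 75.1 FPKM in the others. In the control muscles Mb ranged from 578 to 1569 FPKM, Myh1 from 92.8 to 331 FPKM and Myh2 from 77.3 to 214 FPKM. Myh4, the myosin gene of the fastest fibers, was at 8751 FPKM in C26 replicate 3 and at 10905 and 8824 FPKM in replicates 1 and 2. The slow fiber gene Myh7 was at 28.9 FPKM in replicate 3 and at 14.2 and 2.46 FPKM in the other C26 muscles. Tnnt1, also of slow fibers, was at 44.0 FPKM there and at 27.6 and 5.18 FPKM in the others. Both replicate 3 values were inside the control ranges of 5.73 to 45.1 and 14.9 to 78.6 FPKM. The part of fiber composition in the Atp1b1 level was not tested. These fiber type genes were named after their values were seen.

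The ratio of Atp1b2 to Atp1b1 within a muscle does not depend on the scaling between muscles. It was 1.55, 1.37 and 0.468 in C26 muscle against 2.84, 2.93 and 3.50 in control muscle, so the groups did not overlap. The difference in mean log2 ratio was -1.62 (two-sided exact permutation test, p = 0.1, the lowest possible with 3 muscles per group). Without C26 replicate 3 the difference was -1.08, and without both muscles numbered 3 it was -0.99 (exact permutation test, p = 0.333, the lowest possible). In C26 replicate 3 Atp1b1 was the higher of the pair, and Atp1b2 was the higher one in the 5 other muscles.

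The remaining pump genes were read beside the beta subunits. Of 13 further genes of the pump, 12 were measured and 2 were called. The third beta isoform, Atp1b3, had 21.8 ± 2.40 FPKM in C26 and 31.3 ± 13.2 FPKM in control muscles, which gave a log2 fold change of -0.22 (limma, Benjamini-Hochberg adjusted p = 0.521).

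Fxyd1 encodes phospholemman, a small regulator of the pump. It had 520 ± 45.5 FPKM in C26 and 767 ± 94.4 FPKM in control muscles, which gave a log2 fold change of -0.34 on the scaled values (limma, Benjamini-Hochberg adjusted p = 0.115). Fxyd2, a regulator best known from kidney, had a log2 fold change of -1.02 at 1.77 ± 0.306 FPKM in C26 and 5.53 ± 3.71 FPKM in control muscles (limma, Benjamini-Hochberg adjusted p = 0.0806). Fxyd5 had log2 fold change -0.35, with 40.3 FPKM in control replicate 3 and at most 10.1 FPKM in any other muscle. Fxyd6 had log2 fold change -0.40 and followed the muscle order of Atp1b1, with 26.1 FPKM in C26 replicate 3 and 5.92 and 2.88 FPKM in the other C26 muscles. Fxyd3, Fxyd7 and the muscle-specific Atp1b4 were at 4 FPKM or less and not called. Atp1a4, an alpha isoform known from sperm, stayed at or under 1.60 FPKM and was called lower (log2 fold change -0.98, limma, Benjamini-Hochberg adjusted p = 0.0240).

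Within the summed FPKM of the 4 beta genes, Atp1b2 took 22.4% to 33.5% in C26 and 53.1% to 65.1% in control muscles. The sum was chosen after the values were seen.

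**Figure D2:**
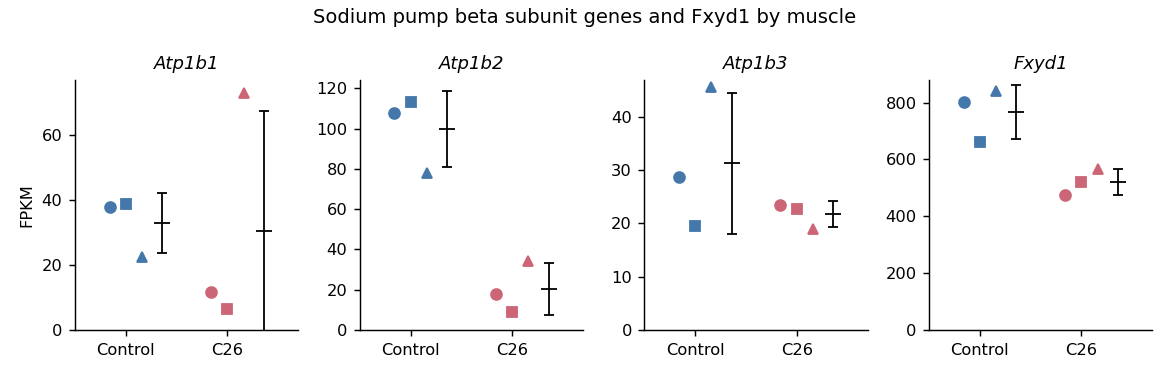
FPKM of the beta subunit genes Atp1b1, Atp1b2 and Atp1b3 and of Fxyd1 in each muscle, with control muscles in blue, C26 muscles in red, circles, squares and triangles for replicates 1 to 3 and the mean with its SD in black (n = 3 per group; the lower SD bar of Atp1b1 in C26 muscle is cut at 0). Atp1b2 is at 34.2 FPKM or less in C26 and at 78.1 FPKM or more in control muscles, and Atp1b1 and Atp1b3 overlap between the groups.

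Scn4a had 43.4, 38.0 and 56.5 FPKM in the C26 muscles and 62.6, 65.4 and 44.5 FPKM in the control muscles. The groups overlapped, since C26 replicate 3 was above control replicate 3. The log2 fold change was -0.10 (SE 0.27, limma, Benjamini-Hochberg adjusted p = 0.782). Of 14 further sodium channel genes 8 were measured, 5 of them under 1 FPKM in all muscles. By limma 0 of the 8 were called, and 1 had an unadjusted p under 0.05.

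Clcn1 had 4.95, 9.85 and 19.2 FPKM in the C26 muscles and 72.5, 65.3 and 50.2 FPKM in the control muscles. The highest C26 muscle, replicate 3, was well below the lowest control, which was control replicate 3. The means were 11.3 ± 7.23 FPKM in C26 and 62.6 ± 11.4 FPKM in control muscles (SD, n = 3 each), and Clcn1 moved from the 92.7th to the 69.4th percentile of all genes by mean FPKM. The scaled level was 5.16-fold lower, a log2 fold change of -2.37 (SE 0.48, limma, Benjamini-Hochberg adjusted p = 0.0136). Of the 6 fits that omitted a muscle, the call was lost in the one without control replicate 1, at an adjusted p of 0.0557 (limma, Benjamini-Hochberg).

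The other ClC and LRRC8 chloride channel genes measured had means of at most 8.99 FPKM in control muscle. Of 14 further genes of the ClC and LRRC8 families 10 were measured, 2 were higher, 2 lower and 6 not called. Clcn2, a widely expressed plasma membrane chloride channel, fell from 1.92 ± 0.506 to 0.567 ± 0.0252 FPKM, which gave a log2 fold change of -0.95 (limma, Benjamini-Hochberg adjusted p = 0.00790). Clcn7, the lysosomal chloride and proton exchanger, rose from 5.21 ± 0.328 to 7.14 ± 0.946 FPKM (log2 fold change 0.60, limma, Benjamini-Hochberg adjusted p = 0.0177). Lrrc8a, the obligatory subunit of the volume-regulated anion channel, rose with a log2 fold change of 0.91, and its partner Lrrc8d fell with one of -0.69 (limma, Benjamini-Hochberg adjusted p = 0.00835 and 0.0156).

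Kcnj2 had 9.70, 6.33 and 14.0 FPKM in the C26 muscles and 12.8, 12.1 and 10 FPKM in the control muscles. The C26 values spanned the control values on both sides. The log2 fold change was -0.06 (SE 0.32, limma, Benjamini-Hochberg adjusted p = 0.901). Kcnj12, which encodes the related inward rectifier Kir2.2 and was named after its values were seen, had 4.12, 3.74 and 10.6 FPKM in the C26 muscles and 13.7, 14.9 and 10.9 FPKM in the control muscles. Its log2 fold change was -0.96 (SE 0.42, limma, Benjamini-Hochberg adjusted p = 0.120).

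Kcnj11 had 87.2, 61.7 and 52.1 FPKM in the C26 muscles and 37.6, 35.3 and 25.4 FPKM in the control muscles. Every C26 muscle was above every control, and C26 replicate 3 was again the nearest to the controls. The means were 67.0 ± 18.1 FPKM in C26 and 32.8 ± 6.46 FPKM in control muscles (SD, n = 3 each). The scaled level was 2.33-fold higher, a log2 fold change of 1.22 (SE 0.26, limma, Benjamini-Hochberg adjusted p = 0.0156). Of the same 6 fits, the call was lost in the one without C26 replicate 1, at an adjusted p of 0.0553 (limma, Benjamini-Hochberg).

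A KATP channel combines its pores with sulfonylurea receptors, encoded by Abcc8 (SUR1) or Abcc9 (SUR2). Abcc8 rose, with 11.6, 7.85 and 3.95 FPKM in the C26 muscles and 1.01, 0.93 and 0.91 FPKM in the control muscles. The lowest C26 muscle was well above the highest control, with a log2 fold change of 2.49 (SE 0.33, limma, Benjamini-Hochberg adjusted p = 0.00501). This call held with any 1 muscle left out. Abcc8 lies 3758 bases from Kcnj11 on chromosome 7 (chr7:46104523-46180033), on the same strand. Abcc9, the receptor typical of skeletal muscle, had 23.5 ± 3.41 FPKM in C26 and 23.6 ± 4.59 FPKM in control muscles, which gave a log2 fold change of 0.21 (SE 0.25, limma, Benjamini-Hochberg adjusted p = 0.519). Abcc9 and its ratio to Abcc8 were chosen after the values were seen. The level of Abcc8 was 0.458, 0.402 and 0.155 times that of Abcc9 in the C26 muscles and 0.0410, 0.0338 and 0.0491 times in the controls (two-sided exact permutation test of the log2 ratio, p = 0.1, the smallest possible). Kcnj8, the vascular KATP pore Kir6.1, fell from 10.8 ± 1.64 to 5.51 ± 0.585 FPKM (log2 fold change -0.70, limma, Benjamini-Hochberg adjusted p = 0.0253). The endothelial marker genes summed to 56.8 to 62.8 FPKM in C26 and 66.1 to 93.5 FPKM in control muscles, and on scaled TPM their sums overlapped. The smooth muscle and pericyte markers other than Des summed to 55.6 to 82.4 FPKM in C26 and 97.5 to 140 FPKM in control muscles, and their scaled sums overlapped too. Among them Pdgfrb, a pericyte gene named after its values were seen, had a log2 fold change of -0.70 (limma, Benjamini-Hochberg adjusted p = 0.0279). The part of these cells in the Kcnj8 value was not tested. Of the 15 further genes of inward rectifiers and KATP channels 8 were measured, and Abcc8 and Kcnj8 were those called.

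**Figure D3:**
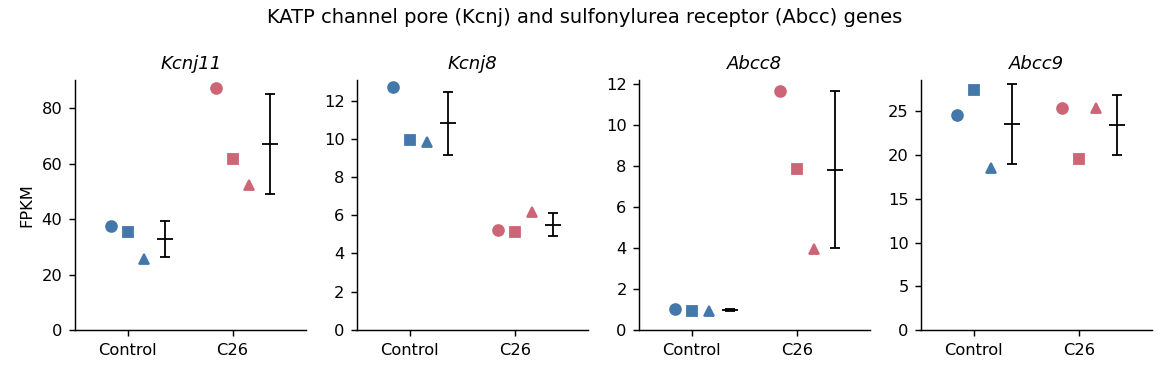
FPKM of the KATP channel pore genes Kcnj11 and Kcnj8 and the receptor genes Abcc8 and Abcc9 in each muscle, with control muscles in blue, C26 muscles in red, circles, squares and triangles for replicates 1 to 3 and the mean with its SD in black (n = 3 per group). Kcnj11 and Abcc8 are higher and Kcnj8 lower in every C26 muscle, and Abcc9 overlaps between the groups at 18.5 to 27.5 FPKM.

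Kcna7 had 46.9, 26.3 and 55.6 FPKM in the C26 muscles and 41.7, 47.1 and 26.7 FPKM in the control muscles. The lowest muscles of both groups were nearly equal, and the groups overlapped over most of their range. The log2 fold change was 0.34 (SE 0.39, limma, Benjamini-Hochberg adjusted p = 0.514), and with quantile normalization it turned to -0.044. Of 31 further voltage-gated potassium channel genes 19 were measured, 2 were higher, 5 lower and 12 not called. Kcnc4 (Kv3.4), a fast potassium channel of muscle, rose from 22.2 ± 4.44 to 54.7 ± 20.8 FPKM, which gave a log2 fold change of 1.43 (limma, Benjamini-Hochberg adjusted p = 0.0186). Kcna5 (Kv1.5) rose from 1.90 ± 0.460 to 4.08 ± 0.433 FPKM (log2 fold change 1.09, limma, Benjamini-Hochberg adjusted p = 0.010). Kcnh2, the ERG channel, fell from 1.99 ± 0.901 to 0.0967 ± 0.0814 FPKM (log2 fold change -1.75, limma, Benjamini-Hochberg adjusted p = 0.00533).

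**Figure D4:**
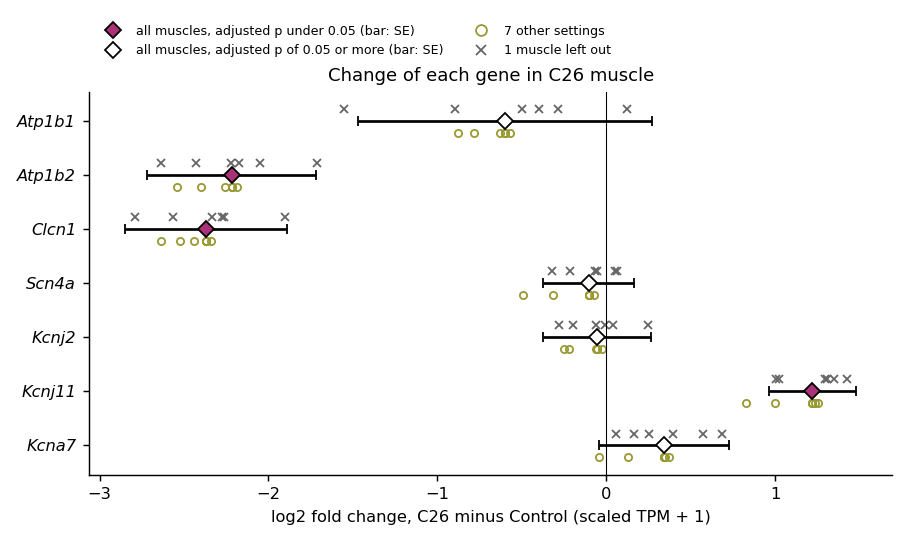
Log2 fold change of each gene between C26 and control muscle, with diamonds for the fit to all 6 muscles and bars for its SE, filled where the adjusted p was under 0.05, open circles for 7 other settings and crosses for the 6 fits that left out 1 muscle. Atp1b2 and Clcn1 stay below 0 and Kcnj11 above 0 in all of them, while crosses of Atp1b1, Scn4a and Kcnj2 fall on both sides of 0.

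The order of the 7 genes by FPKM changed between the groups. In control muscle Atp1b2 was highest at 99.8 FPKM and lay above the range of Clcn1 (62.6). Scn4a (57.5), Kcna7 (38.5), Atp1b1 (33.0) and Kcnj11 (32.8) followed, each overlapping its neighbor. Kcnj2 was lowest at 11.6 FPKM and did not overlap Kcnj11. In C26 muscle Kcnj11 came first at 67.0 FPKM, followed by Scn4a (46.0), Kcna7 (42.9), Atp1b1 (30.4), Atp1b2 (20.4), Clcn1 (11.3) and Kcnj2 (10.02), and each overlapped the next.

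Single muscles stood apart across the 7 genes. C26 replicate 3 had the highest scaled level of the C26 muscles in 6 of the 7 genes, all but Kcnj11, against 39.8% of all genes. Control replicate 3 had the lowest level of the control muscles in all 7, against 45.0% of all genes. Control replicate 2 had the highest scaled level of the control muscles in all 7, against 38.7% of all genes. On FPKM as deposited it was highest in 4 and control replicate 1 in 3. C26 replicate 2 had the lowest scaled level of the C26 muscles in 5, against 33.2%. Control replicate 3 also had 40.1 FPKM of the leukocyte gene Ptprc, against at most 0.81 in any other muscle. With both muscles numbered 3 left out, which was chosen after the values were seen, Atp1b2, Clcn1 and Kcnj11 were still called and Atp1b1 was called too, at a log2 fold change of -1.84 (limma, Benjamini-Hochberg adjusted p = 0.00682).

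Beyond the 7 genes, 8 lists of sarcolemma ion transport genes held 129 genes, of which 93 were measured. Of these, 14 were higher, 13 were lower and 66 were not called, or 29.0% called against 33.8% of all genes, and their median log2 fold change was -0.09. Among them 30 were under 1 FPKM in every muscle. Of the called genes named here beside the 7, Clcn2, Lrrc8a, Abcc8, Kcna5, Kcnh2, Slc8a1, Nedd4l and Sik1 were called in all 6 fits that omitted 1 muscle. Kcnk5 and Slc8a3 lost the call in 5 of these, Atp1a4, Kcnj8, Kcnk2 and Stk39 in 4, Kcnc4 and Clcn7 in 3, Lrrc8d, Kcnn1 and Wnk2 in 2, and Slc12a2 in 1. Under the 7 other settings with all muscles, Atp1a4, Clcn7, Lrrc8d, Kcnk2, Kcnk5 and Stk39 lost the call in 2, and Kcnj8 and Slc8a3 in 1. Among 15 calcium-activated and tandem-pore potassium channel genes 12 were measured, 2 were higher and 1 lower. The tandem-pore channel Kcnk5 rose from 0.433 ± 0.188 to 4.64 ± 3.83 FPKM (log2 fold change 2.14, limma, Benjamini-Hochberg adjusted p = 0.0348). Kcnk2 (TREK-1), a channel of the same family, fell with log2 fold change -1.19, and the small-conductance channel Kcnn1 rose with one of 0.79 (limma, Benjamini-Hochberg adjusted p = 0.0290 and 0.0139).

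Among 15 cotransporters and exchangers 13 were measured, 3 were higher and 2 lower. Slc12a2 (NKCC1), which carries sodium, potassium and chloride inward, rose from 14.4 ± 2.98 to 33.8 ± 7.15 FPKM (log2 fold change 1.41, limma, Benjamini-Hochberg adjusted p = 0.0127). Of the sodium and calcium exchangers, Slc8a3 (NCX3) fell from 21.5 ± 3.37 to 6.05 ± 4.92 FPKM and Slc8a1 (NCX1) rose from 0.260 ± 0.0794 to 0.983 ± 0.204 FPKM. Their log2 fold changes were -1.75 and 0.98 (limma, Benjamini-Hochberg adjusted p = 0.0409 and 0.00898).

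Among 12 kinases and ligases that regulate sodium transport 11 were measured, 3 were higher and 1 lower. Sik1, a salt-inducible kinase, rose from 2.44 ± 0.407 to 32.8 ± 8.76 FPKM, which gave a log2 fold change of 3.62 (SE 0.20, limma, Benjamini-Hochberg adjusted p = 0.000822). Wnk2, a kinase upstream of the chloride cotransporters, rose with log2 fold change 1.14, and Nedd4l, a ligase that removes sodium channels from the membrane, rose with 1.10 (limma, Benjamini-Hochberg adjusted p = 0.0130 and 0.0110). Stk39 (SPAK), the kinase between WNK kinases and the cotransporters, fell from 1.55 ± 0.666 to 0.380 ± 0.111 FPKM (log2 fold change -0.97, limma, Benjamini-Hochberg adjusted p = 0.0231).

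**Figure D5:**
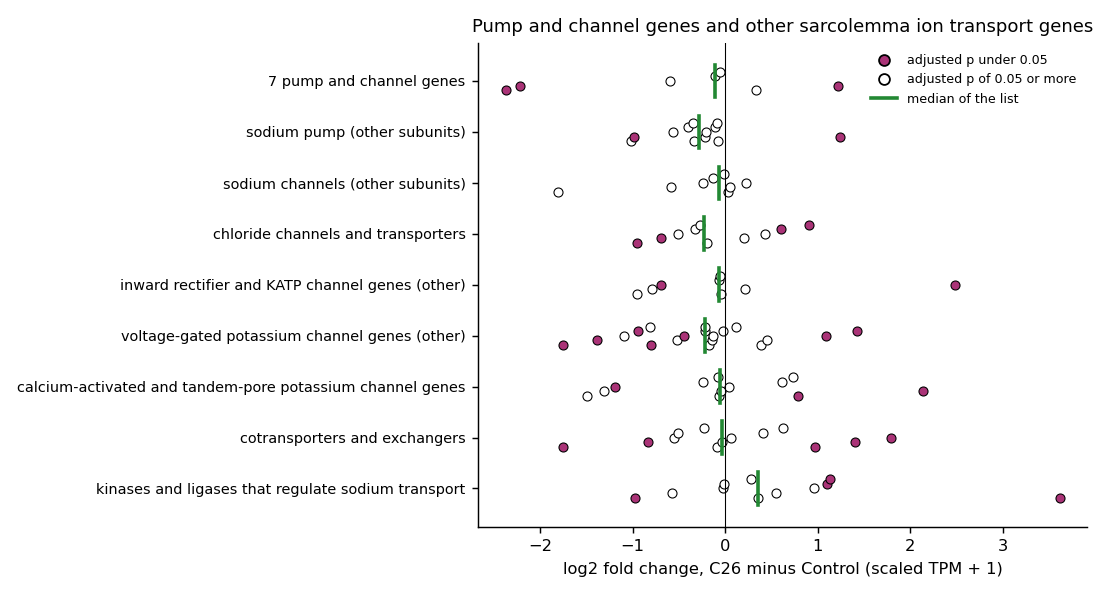
Log2 fold change between C26 and control muscle of the 7 pump and channel genes and of 8 lists of other ion transport genes, 1 point per gene, filled where the adjusted p was under 0.05, with a green bar at the median of each list. Called genes lie on both sides of 0 in 7 of the 8 lists, and the other sodium channel subunits hold 0 called genes.

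Markers of the tissue were read beside these results. The 14 skeletal muscle markers summed to 54331 to 82438 FPKM in C26 and 110391 to 112836 FPKM in control muscles, with 0 higher and 2 lower. These were Casq1, the calcium store protein, with log2 fold change -4.13, and Pvalb, the calcium buffer of fast fibers, with -2.59 (limma, Benjamini-Hochberg adjusted p = 0.0115 and 0.0231). Of the 6 fits that omitted a muscle, Casq1 was called in all, and Pvalb lost the call in 4. Myh4 was at 8751 to 10905 FPKM in C26 and 8672 to 10809 FPKM in control muscles. Of 12 genes known to respond to loss of innervation, most by a rise and Hdac9 by a fall, 10 were measured, and their sum was 105 to 126 FPKM in C26 and 44.0 to 56.2 FPKM in control muscles. Without Gadd45a, at 66.2 to 91.2 FPKM in C26 and 17.3 to 20.5 FPKM in control muscles, the other 9 summed to 24.9 to 60.2 and 25.4 to 35.7 FPKM, and the groups overlapped. Gadd45a rose (log2 fold change 2.19) and Hdac9 fell (-0.67), with limma, Benjamini-Hochberg adjusted p = 0.00187 and 0.0339. Gadd45a was called in all 6 fits that omitted a muscle, and Hdac9 lost the call in 5. The other 8 were not called, with log2 fold changes from -0.59 for the acetylcholine receptor gene Chrna1 to 1.51 for the myogenic factor gene Myog. Chrna1 was at 0.73 to 2.53 FPKM in C26 and 2.62 to 3.92 FPKM in control muscles, and Myog at 4.82 to 30.9 and 4.01 to 6.08 FPKM.

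Of the 8 nerve and Schwann cell markers measured 0 were higher and 2 lower, and their sum was 21.8 to 46.8 FPKM in C26 and 44.2 to 125 FPKM in control muscles. The 8 adipocyte markers summed to 415 to 489 FPKM in C26 and 535 to 3780 FPKM in control muscles with 5 lower, and the 8 fibroblast markers to 160 to 201 and 365 to 435 FPKM with 5 lower. These sums are of FPKM as deposited, whose totals were lower in every C26 muscle than in every control. Whether the adipocyte sums stay apart on scaled TPM was not tested. Of the 8 endothelial markers 2 were lower. Of the 8 smooth muscle and pericyte markers 1 was higher, Des, which skeletal muscle also expresses, and the other 7 had negative log2 fold changes, of which 1 was called. The 4 red blood cell genes were all higher, summing to 615 to 1188 FPKM in C26 and 329 to 508 FPKM in control muscles, with Hba-a1 and Hba-a2 being near-identical copies between which reads could be split. Of 6 immune markers 0 were called by limma, 2 had an unadjusted p under 0.05, and their sum was 31.7 to 284 FPKM in C26 and 35.2 to 243 FPKM in control muscles. Among the called genes of these lists, all 5 adipocyte genes lost the call in 4 or 5 of the 6 fits that omitted a muscle, Pmp22 in 6, Emcn in 5, and Kdr, Lum, Pdgfrb, Hba-a1 and Hba-a2 in 4. Des and Hbb-bs lost it in 3 and S100b in 1. Col1a1, Col1a2, Col3a1, Postn and Alas2 were called in all 6. The part of these cell types in the pump and channel values was not tested.

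For each gene, the gene with the most similar pattern was sought by Pearson correlation of scaled log2 levels over the 6 muscles among 11222 other genes with a mean TPM of at least 1. It was Ldha, which encodes lactate dehydrogenase A, for Atp1b2 (r = 0.999) and Tmx2 for Clcn1 (r = 0.998). For Atp1b1 it was Vps50 (r = 0.997), for Kcnj11 Fhod3 (r = 0.997), for Scn4a Pdzrn3 (r = 0.993), for Kcna7 Rdh14 (r = 0.991) and for Kcnj2 P2ry2 (r = 0.985). With 6 muscles in 2 groups many genes share a pattern: 430 genes had r above 0.95 with Atp1b2, 366 with Clcn1 and 523 with Kcnj11, against 28 to 85 for the 4 genes that were not called.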

How the data were processed

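RNA was sequenced from the gastrocnemius of 3 C26 and 3 control mice. Ribosomal RNA was removed with RNaseH, and libraries were read on the BGISEQ-500 as single-end reads of 50 bases. The authors discarded adaptor, low-quality and ribosomal reads, aligned the rest to GRCm38.p5 with bowtie2 and estimated FPKM with RSEM. The submitters' processing notes list Bowtie2 2.2.5, RSEM 1.2.12, HISAT2 2.0.4 and the build mm9, and the table holds no coordinates, so those given here are from GRCm38 annotation. The extraction text of the labels also names an infected human cell line, and muscle markers were therefore checked. The deposited FPKM are given to 2 decimals. They sum to 531061 to 585169 in the C26 and 626992 to 688300 in the control muscles.

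These values were rescaled here to TPM summing to 1000000, divided by TMM factors (0.903 to 1.08, trimming 30% of log ratios and 5% of mean levels, computed without precision weights) and log2-transformed after adding a pseudocount of 1, so fold changes of low genes are understated. Groups came from the sample labels and were compared with limma 3.58.1 in R 4.3.3, with Benjamini-Hochberg adjustment over 13363 genes. Symbols were matched for 13327 Entrez IDs. P-values measure the spread between these 6 muscles. Alternatives were quantile normalization, TPM without TMM factors, the deposited FPKM unscaled, a pseudocount of 0.1, a filter at a mean TPM of 1, an intensity trend in limma, a block for the replicate number, and each muscle left out. Leaving out both muscles numbered 3 was added after seeing the data. Members, lists and tests were chosen with earlier results of these data known. Named genes were the 7 members, measured pump genes, up to 4 called genes per list with the largest change, and the nearest gene in pattern of each member. For the marker lists of cell types other than muscle fibers, counts and sums are given, and single genes are named only with the fits in which they lost their call or where said. Some genes that the rule names are not reported here, while counts over their lists include them. Sums without a dominant gene were chosen after the values were seen. Other genes are said to be named after their values were seen, or are given as values of a marker (Acta1, Ckm, Myh4, Chrna1, Myog, Ptprc). Figures were drawn with Python 3.11.15 and matplotlib 3.10.9.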

Additional observations from a re-analysis of the deposited data

How the results depend on the processing

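Across the 7 alternatives with all muscles, the log2 fold change of Atp1b2 lay between -2.54 and -2.19, that of Clcn1 between -2.63 and -2.34 and that of Kcnj11 between 0.83 and 1.25, and the adjusted p of limma stayed under 0.05 for each except Atp1b2 under the replicate block. With the replicate number as a block, Atp1b2 had log2 fold change -2.22 and an adjusted p of 0.0535 (limma), 1 gene of the 7 was called lower, 6 other transport genes were lower and 1236 of all genes were lower. The deviations of same-numbered muscles from their group means correlated at -0.039, -0.084 and -0.112, so the samples share only a number. For the ratio of Atp1b2 to Atp1b1 the paired difference was -1.62 (exact sign-flip permutation test, p = 0.25, the smallest possible). FPKM as deposited gave 1678 higher and 2504 lower genes, against 2590 and 1931, and moved the median of all genes to -0.14, quantile normalization gave 8 lower transport genes and -0.044 for Kcna7. The causes of these changes were not tested.

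With 1 muscle left out, all listed genes had 1131 to 3311 higher and 669 to 2160 lower calls, the 7 genes 0 to 1 higher and 0 to 3 lower, and the other transport genes 8 to 18 higher and 4 to 18 lower. The sign turned without C26 replicate 2 for Atp1b1, Scn4a and Kcnj2 and without control replicate 2 for Scn4a and Kcnj2. The log2 fold changes lay between -1.55 and 0.12 for Atp1b1, -2.64 and -1.71 for Atp1b2, -2.79 and -1.90 for Clcn1, -0.32 and 0.065 for Scn4a, -0.28 and 0.25 for Kcnj2, and 1.004 and 1.43 for Kcnj11. Those of Kcna7 lay between 0.06 and 0.69 and the log2 ratio between -1.94 and -1.08.  Without both muscles numbered 3, 3780 of all genes and 22 other transport genes were higher and 2805 and 22 were lower. Atp1b1 was then at -1.84, Atp1b2 at -2.84, Clcn1 at -2.97, Scn4a at -0.42, Kcnj2 at -0.41, Kcna7 at -0.10 and the log2 ratio at -0.99. Without read counts, the counting error of low genes is unknown.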
